A study of Homo sapiens with 5 samples.

Results

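YAP1, WWTR1, TEAD1, TEAD3, TEAD4, CCN1, ANKRD1, AMOTL2 and LATS2 are genes of the Hippo pathway or targets of its effectors, and SMAD2 binding was examined at these 9 loci in T47D cells. A locus was taken as the gene's span on hg19, given to the whole kb, plus 20 kb on each side. Its limits were thus set by position, but the members were chosen with earlier results of these data known. Together the 9 loci covered 1206 kb and held 157 of the 115321 regions of the genome in which a SMAD2 summit was listed. A summit is the single base at which the authors' peak caller placed the maximum of a peak, and a region is a run of summits of any library lying at most 200 bp apart.

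T47D is an established line of estrogen receptor-positive human breast cancer of the luminal type. Chromatin was immunoprecipitated with an antibody against SMAD2 from cells given palbociclib at 1 µM for 24 h and activin A at 50 ng/ml for 1.5 h (2 libraries), and from cells given the same activin A treatment without palbociclib (2 libraries). All 4 libraries thus come from cells that received activin A. The series also holds input DNA of T47D cells, which was taken to be the control for the peak calling. All values come from 1 cell line, and nothing in the labels tells separate cultures from repeat libraries, so the replicate spread may be technical. Palbociclib inhibits CDK4 and CDK6, and activin A activates SMAD2 and SMAD3 through its receptors.

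The Hippo pathway is a kinase cascade that restrains tissue growth. Its LATS kinases phosphorylate the coactivators YAP and TAZ and so keep them out of the nucleus. In the nucleus YAP and TAZ bind DNA through the TEAD transcription factors, and both are known to meet activated SMAD complexes there. YAP1 encodes YAP and WWTR1 encodes TAZ. TEAD1, TEAD3 and TEAD4 encode DNA-binding partners. CCN1 (a secreted matricellular protein), ANKRD1 (an ankyrin repeat protein of the nucleus and the muscle sarcomere) and AMOTL2 (an angiomotin family scaffold that binds YAP) are targets widely used to read out YAP activity. LATS2 is at once a kinase of the cascade and a YAP target, which closes a negative feedback loop.

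The promoters of 6 of the 9 genes were matched by symbol in RefSeq's sequences on GRCh38.p14, in windows of 250 bases before and 50 bases after a transcription start. The sequences below are those of the RefSeq starts whose distance from the gene's 3′ end was closest to that of a strong summit (AMOTL2 and WWTR1), of 2 loci with differences between libraries near the start end of the span (LATS2 and YAP1), and of ANKRD1, the locus with the lowest number of summits. Capitals mark 2 motifs searched on both strands, the TEAD motif GGAATG, which reads CATTCC on the opposite strand, and the SMAD motif CAGAC, which reads GTCTG there. The windows of TEAD3 and of the other WWTR1 start held neither motif and are not printed, although TEAD3 summits near the start end also differed between libraries.
AMOTL2 promoter, chr3:134374398-134374697, minus strand: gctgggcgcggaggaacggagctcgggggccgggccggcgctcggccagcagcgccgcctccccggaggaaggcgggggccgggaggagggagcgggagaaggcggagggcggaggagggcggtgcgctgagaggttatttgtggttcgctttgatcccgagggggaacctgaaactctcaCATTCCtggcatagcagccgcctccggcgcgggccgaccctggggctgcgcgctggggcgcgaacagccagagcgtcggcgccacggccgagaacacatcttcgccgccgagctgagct
WWTR1 promoter, chr3:149657976-149658275, minus strand: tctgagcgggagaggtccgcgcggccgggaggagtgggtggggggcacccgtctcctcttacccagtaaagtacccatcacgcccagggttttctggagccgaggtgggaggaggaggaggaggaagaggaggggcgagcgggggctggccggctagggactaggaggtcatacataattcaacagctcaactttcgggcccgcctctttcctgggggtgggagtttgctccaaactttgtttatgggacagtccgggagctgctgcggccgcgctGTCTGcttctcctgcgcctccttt
LATS2 promoter, chr13:21061537-21061836, minus strand: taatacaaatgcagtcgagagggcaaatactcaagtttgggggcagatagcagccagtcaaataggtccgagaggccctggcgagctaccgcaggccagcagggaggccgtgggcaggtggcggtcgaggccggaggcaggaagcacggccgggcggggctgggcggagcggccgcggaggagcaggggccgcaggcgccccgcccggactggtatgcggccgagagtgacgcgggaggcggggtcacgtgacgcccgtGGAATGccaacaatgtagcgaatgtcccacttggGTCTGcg
YAP1 promoter, chr11:102110197-102110496, plus strand: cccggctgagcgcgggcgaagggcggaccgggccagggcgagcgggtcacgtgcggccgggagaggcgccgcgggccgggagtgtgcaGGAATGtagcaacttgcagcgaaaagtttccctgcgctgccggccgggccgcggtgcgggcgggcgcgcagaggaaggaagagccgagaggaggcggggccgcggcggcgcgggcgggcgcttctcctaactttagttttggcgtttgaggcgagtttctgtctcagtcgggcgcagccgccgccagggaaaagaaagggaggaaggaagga
ANKRD1 promoter, chr10:90921038-90921337, minus strand: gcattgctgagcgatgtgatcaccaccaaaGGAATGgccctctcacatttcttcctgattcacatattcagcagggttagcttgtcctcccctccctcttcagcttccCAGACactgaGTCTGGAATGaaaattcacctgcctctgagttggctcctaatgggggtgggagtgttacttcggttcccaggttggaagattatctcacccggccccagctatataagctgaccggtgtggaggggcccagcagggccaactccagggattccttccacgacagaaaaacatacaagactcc

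The motif GGAATG was present in 4 of the 8 promoter windows of the 6 matched genes, and in 14.0% of the 35116 RefSeq promoter windows. It lay 69 bases before the AMOTL2 start, 162 bases before the YAP1 start, 220 and 128 bases before the ANKRD1 start, and 9 bases after the LATS2 start. CAGAC was present in 4 of the 8 windows (WWTR1, LATS2, ANKRD1 and the other AMOTL2 start), and in 45.3% of all windows. In ANKRD1 its second match shares 1 base with GGAATG. The GC-rich SMAD motif GGCGC was present in 5 of the 8 windows and in 48.6% of all windows, and the AP-1 motif TGANTCA in ANKRD1 and in 7.71% of all windows. The palindromic SMAD motif GTCTAGAC was present in 0 of the 8 windows of these genes and in 0.202% of all windows. These matches describe letters. The summits are listed on hg19 and could not be placed inside these GRCh38 windows.

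The 4 libraries were close in the number of summits at these loci. The palbociclib libraries held 73 and 92 summits in the 9 loci, against 71 and 78 in the activin libraries, so the groups overlapped. The means were 82.5 ± 13.4 with palbociclib and 74.5 ± 4.9 with activin alone (SD, n = 2 each), or 1.11-fold (exact two-sided permutation test over libraries, p = 0.667). The whole lists were 62960 and 65207 summits long with palbociclib and 51535 and 54243 with activin alone, or 1.21-fold. Per 10000 summits of a list, the loci held 11.6 and 14.1 with palbociclib, against 13.8 and 14.4 with activin alone (exact permutation test, p = 0.667). Palbociclib replicate 1 was the low one of the 4 on this scale. With 2 against 2 libraries no p can fall below 0.333, and read depth is unknown for these lists.

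Summits were dense at these loci. On average a library had 6.51 summits per 100 kb in the 9 loci and 1.99 per 100 kb over the mapped chromosomes, a ratio of 3.27. The windows are centred on genes, whereas the genome average includes stretches without genes. The density came mostly from AMOTL2, with 34.2 summits per 100 kb, TEAD3 with 27.7 and CCN1 with 17.6. It was 4.92 at TEAD4, 4.73 at YAP1, 3.56 at WWTR1, and 1.96, 1.94 and 1.92 at ANKRD1, LATS2 and TEAD1.

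**Figure D1:**
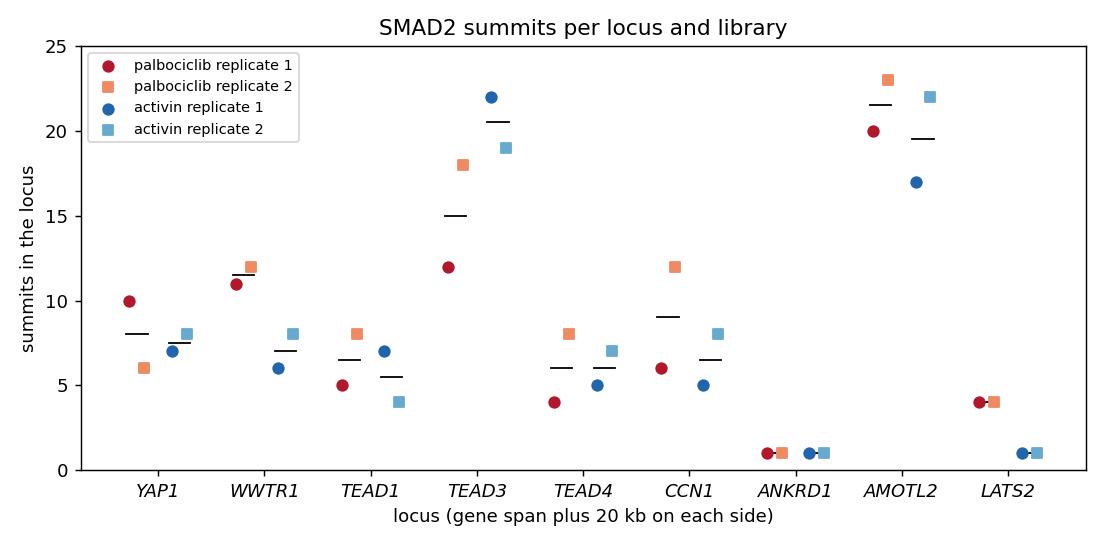
Number of SMAD2 summits (y axis) in each of the 9 loci (x axis) in each library; points are single libraries and bars are means of 2. The palbociclib libraries lie above both activin libraries at WWTR1 and LATS2 and below both at TEAD3, and the groups overlap or coincide at the other 6 loci.

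Both palbociclib libraries held more summits than both activin libraries at 2 of the 9 loci, WWTR1 and LATS2. Among all stretches of the genome cut to the length of a locus and holding any summit, this was the case in 14.0% (length of the CCN1 locus) to 26.6% (length of the TEAD1 locus), with 24.7% at the length of the WWTR1 locus and 19.3% at that of the LATS2 locus. At 1 locus, TEAD3, both palbociclib libraries held fewer, which was the case in 2.98% of stretches of that length and in 2.91% to 3.32% over the 9 lengths. The stretches of the TEAD3 length held a median of 5 summits over the 4 libraries, against 71 at TEAD3. At the WWTR1 length the median was 12, against 37, and at the LATS2 length 7, against 10. The share among stretches as dense as these loci was not computed. The 2 loci with more summits are near the genome's share, and the count of loci with fewer rests on TEAD3 alone.

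Of the 157 regions, 29 (18.5%) held a summit in all 4 libraries, against 20.4% of all regions. Regions with a summit in both palbociclib libraries and neither activin library numbered 10 (6.37%), against 5.29% of all regions. Regions of both activin libraries and neither palbociclib library numbered 9 (5.73%), against 2.22% of all regions. Of these 9, 4 lay at TEAD3 and 2 at YAP1. Another 75 regions (47.8%) were listed in a single library, against 50.8% of all regions. To compare strength on lists of one length, the 23476 regions found in all 4 libraries were ranked by score within each library, rank 1 being the strongest. Both palbociclib ranks were better than both activin ranks in 10 of the 29 regions, against 20.3% of all such regions, and worse in 5, against 19.7%. By locus, the better ranks fell at AMOTL2 (4 of 6), CCN1 (2 of 4), TEAD4 (2 of 2), TEAD1 (1 of 2) and TEAD3 (1 of 6), and the worse ones at WWTR1 (3 of 6), AMOTL2 (1 of 6) and TEAD3 (1 of 6). These numbers are small and were not tested.

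**Figure D2:**
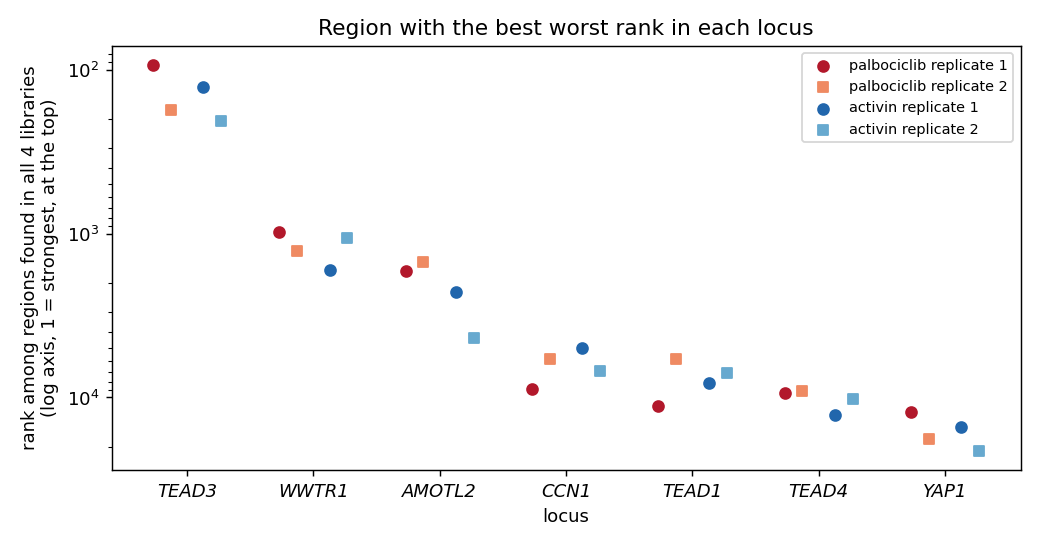
For each of the 7 loci with a region found in all 4 libraries, the region with the best worst rank is shown by its rank (y axis, log scale, 1 at the top) among the 23476 regions found in all 4 libraries. The TEAD3 region ranked between 94 and 207, the AMOTL2 region ranked better in both palbociclib libraries (1687 and 1485) than in both activin libraries (2278 and 4311), and at YAP1 the groups overlap.

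At WWTR1 (chromosome 3, 149235000 to 149455000, minus strand) the palbociclib libraries held 11 and 12 summits, against 6 and 8 in the activin libraries. The means were 11.5 ± 0.7 and 7.0 ± 1.4 (SD, n = 2 each), 1.64-fold, and the exact permutation p was 0.333, the smallest possible. The groups did not overlap, but they did with lists trimmed to equal length, with a minimum score of 5 and among the highest 10000 summits of each list.

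The strongest WWTR1 region inside the gene lay at 149375785 to 149375881. Its score, read as the −log10 q of the summit within its own list, was 228 and 184 in the palbociclib libraries and 117 and 147 in the activin libraries. Among the shared regions it ranked 981 and 1285 with palbociclib, against 1678 and 1071 with activin alone, so its ranks overlapped. It lay 140.8 kb from the 3′ end of the gene span on hg19, and the RefSeq start printed above lies 140.8 kb from the 3′ end of WWTR1 on GRCh38. Each distance was measured within its own build, and the ends of the span are given to the whole kb. That start was printed because its distance was the closest, and the other WWTR1 start lies at 186.0 kb.

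The other strong region of the WWTR1 window lay outside the gene, at 149470212 to 149470249, with scores of 194 and 175 with palbociclib and 147 and 108 with activin alone. It lay 235.2 kb from the 3′ end of WWTR1. RefSeq places the start of the neighbouring COMMD2, whose protein is a member of the COMMD family, 235.3 kb from that end on GRCh38. The 3 weaker shared regions at 149252768, 149265865 and 149454084 ranked worse in both palbociclib libraries. The first of them ranked 21484 and 23331 with palbociclib, against 12355 and 15598 with activin alone. The region found in both palbociclib libraries alone, at 149282014 to 149282078, scored 12.1 and 5.70, against medians of 9.41 and 8.39 over the whole lists. The WWTR1 summits listed in a single palbociclib library scored 2.80 to 5.80, and the one listed in activin replicate 2 alone scored 2.76.

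At YAP1 (chromosome 11, 101981000 to 102105000, plus strand) the palbociclib libraries held 10 and 6 summits, against 7 and 8 in the activin libraries, with means of 8.0 ± 2.8 and 7.5 ± 0.7 (SD, n = 2 each). The counts overlapped (exact permutation test, p = 1.0). All 4 libraries had their strongest summit of the locus within 2 kb of the start end of the span. It was at 101980780 (score 63.7) in palbociclib replicate 1 and at 101981223 (97.4) in palbociclib replicate 2, against 101981242 (40.96) in activin replicate 1 and 101981231 (35.0) in activin replicate 2. Palbociclib replicate 1 placed it 0.22 kb upstream of the start end and the other 3 libraries 0.223 to 0.242 kb inside the span, so chaining put it in a separate region, where activin replicate 2 also had a summit (score 28.3). A region at 101981901 to 101981924 held both activin libraries alone, with scores of 14.2 and 31.4. The region found in all 4 libraries nearest to the start lay 44.7 kb into the gene, with scores of 30.7 and 12.9 with palbociclib and 14.4 and 5.70 with activin alone. A cluster of weak summits followed the 3′ end of the gene, with 6 and 4 summits in the palbociclib libraries and 4 and 4 in the activin libraries.

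Of the 3 TEAD genes, TEAD3 had the most summits, and it was the one locus with fewer after palbociclib. At TEAD3 (chromosome 6, 35441000 to 35465000, minus strand) the palbociclib libraries held 12 and 18 summits, against 22 and 19 in the activin libraries. The means were 15.0 ± 4.2 and 20.5 ± 2.1 (SD, n = 2 each), 0.732-fold, with no overlap between the groups and an exact permutation p of 0.333, the smallest possible. Of the genome's stretches of this length, 99.1% held fewer summits in all. The difference lay mostly in the gene: the span held 2 and 4 summits with palbociclib against 7 and 5 with activin alone, and the downstream flank 1 and 1 against 3 and 1. The upstream flank held 9 and 13 with palbociclib against 12 and 13 with activin alone. With a minimum score of 5, and among the highest 10000 summits of each list, the groups at TEAD3 overlapped.

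RefSeq lists 3 other protein-coding genes within 20 kb of TEAD3 on GRCh38. RefSeq places TULP1, a gene known for its role in photoreceptors, from 0.795 to 15.8 kb upstream of TEAD3 on GRCh38. Between 1 and 13 kb upstream the palbociclib libraries held 8 and 12 summits, against 11 and 12 in the activin libraries. The strongest region of all 9 loci lay 4.79 kb beyond the 3′ end of TEAD3, at 35436204 to 35436217, with scores of 476 and 349 with palbociclib and 298 and 266 with activin alone. RefSeq places RPL10A, a ribosomal protein gene, from 5.20 to 2.82 kb beyond that end on GRCh38. FANCE, a Fanconi anaemia gene, lies from 21.3 to 6.50 kb beyond it. Among shared regions the strongest one ranked 94 and 176 with palbociclib, against 128 and 207 with activin alone, which overlap.

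Near the start end of the TEAD3 span every library had a summit, at 2 places 0.395 to 0.742 kb upstream of the span. Their regions lay 24.4 and 24.7 kb from the 3′ end of the span. On GRCh38 RefSeq places the TEAD3 start 23.5 kb from that end, and TULP1 from 24.3 to 39.3 kb. Palbociclib replicate 2 and activin replicate 1 placed the summit at 35465395 and 35465492, with scores of 69.9 and 45.0. Palbociclib replicate 1 and activin replicate 2 placed it at 35465742 and 35465733, with scores of 44.7 and 21.5. The choice of place did not follow the treatment. Group-specific regions lay beside each other upstream: 35473849 to 35474013 held the palbociclib libraries alone (21.6 and 21.4), and 35473263 to 35473321 the activin libraries alone (8.49 and 9.33). Activin replicate 1 also had a summit between them, at 35473645 (score 13.4), just beyond the chaining gap from the palbociclib region. The label of that region as palbociclib-only thus rests on the gap chosen for chaining. The activin-only region with the best ranks lay near the 3′ end at 35441584 to 35441640, with scores of 30.5 and 30.5.

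**Figure D3:**
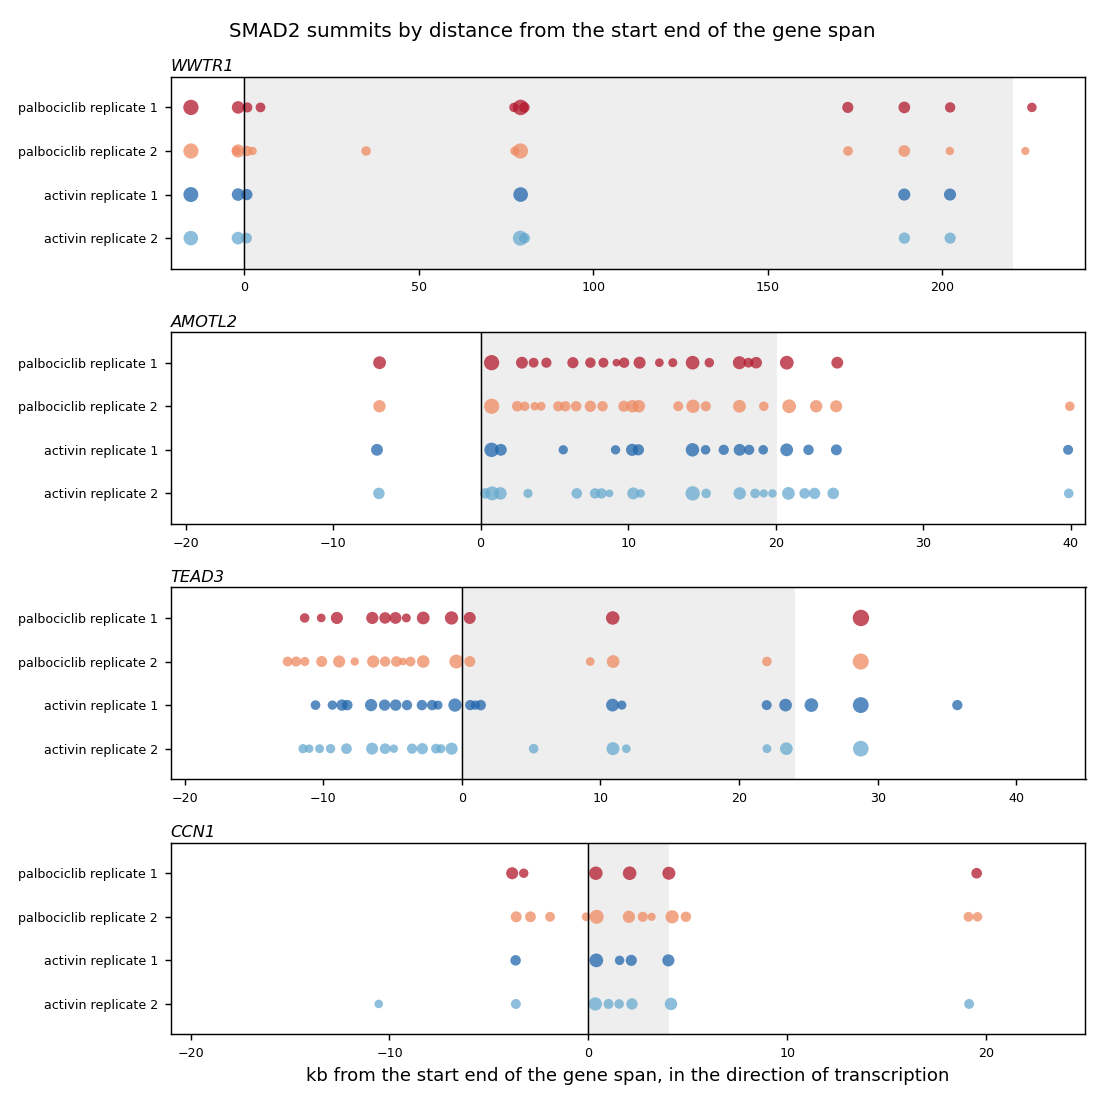
Summits of each library (rows) at WWTR1, AMOTL2, TEAD3 and CCN1 by distance in kb from the start end of the gene span (x axis), with the span shaded and a larger disc for a higher score (area grows with the log of the score). AMOTL2 summits run across the whole gene, TEAD3 summits run upstream of it, and the palbociclib rows of TEAD3 hold 12 and 18 discs, against 22 and 19 in the activin rows.

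At TEAD1 and TEAD4 every library had its strongest summit within 2 kb of the start. At TEAD1 (chromosome 11, 12695000 to 12967000, plus strand) the palbociclib libraries held 5 and 8 summits, against 7 and 4 in the activin libraries (exact permutation test, p = 0.667). The start region at 12695476 to 12695555 scored 35.6 and 75.5 with palbociclib and 37.7 and 43.0 with activin alone, with overlapping ranks. A region 55.2 kb into the gene, at 12750185 to 12750264, scored 21.7 and 20.1 with palbociclib and 8.35 and 9.02 with activin alone. It ranked 14927 and 14735 with palbociclib, against 19215 and 18107 with activin alone, without overlap.

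At TEAD4 (chromosome 12, 3068000 to 3150000, plus strand) the palbociclib libraries held 4 and 8 summits, against 5 and 7 in the activin libraries, with equal means of 6.0. Of its 24 summits, 16 lay within 2 kb of the start. The region at 3067977 to 3067996 scored 79.7 and 75.8 with palbociclib and 15.8 and 40.6 with activin alone. It ranked 5992 and 5826 with palbociclib, against 14508 and 7499 with activin alone. The region at 3069201 to 3069289 scored 46.5 and 44.6 with palbociclib and 19.7 and 26.0 with activin alone. In both regions the palbociclib ranks were better without overlap, and activin replicate 1 was the weakest library.

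Of the target genes, AMOTL2 had the most summits. At AMOTL2 (chromosome 3, 134074000 to 134094000, minus strand) the palbociclib libraries held 20 and 23 summits, against 17 and 22 in the activin libraries, so the groups overlapped (exact permutation test, p = 0.667). Of the genome's stretches of this length, 99.6% held fewer summits in all. The span of 20 kb held 17 and 18 summits with palbociclib and 12 and 16 with activin alone. The upstream flank held 1 summit in each library.

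The AMOTL2 region that was strongest in 3 of the 4 libraries lay at 134093215 to 134093257, a spread of 42 bp over the 4 libraries. It scored 183 and 174 with palbociclib and 100 and 70.0 with activin alone, and it ranked 1687 and 1485 with palbociclib, against 2278 and 4311 with activin alone. It lay 19.2 kb from the 3′ end of the span. The AMOTL2 start printed above, chosen as the closest, lies 19.1 kb from the 3′ end on GRCh38, and the other start 20.1 kb. Of all 29 shared regions of the 9 loci, this one, both TEAD4 regions and 7 others ranked better with palbociclib. Another AMOTL2 region, the strongest in activin replicate 2, went the other way. At 134079601 to 134079639, 14.4 kb into the gene, it scored 57.8 and 47.6 with palbociclib and 50.6 and 96.4 with activin alone, and ranked 8001 and 8616 with palbociclib, against 6342 and 2617 with activin alone. The ranks thus differed between the groups in opposite directions at 2 regions of one gene. Of the 10 palbociclib-only regions, 4 lay inside AMOTL2, with scores of 3.14 to 18.5, and the activin-only region at 134092626 to 134092657 scored 18.0 and 27.4.

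At CCN1 (chromosome 1, 86046000 to 86050000, plus strand) the palbociclib libraries held 6 and 12 summits, against 5 and 8 in the activin libraries (means 9.0 ± 4.2 and 6.5 ± 2.1, SD, n = 2 each, exact permutation test, p = 0.667). The range within each group exceeded the difference in means of 2.5. The start region at 86046351 to 86046417 scored 50.7 and 75.5 with palbociclib and 61.9 and 44.6 with activin alone, with overlapping ranks. The region at 86048039 to 86048192, inside the gene, scored 54.2 and 23.03 with palbociclib and 12.1 and 13.4 with activin alone. It ranked 8446 and 13705 with palbociclib, against 16574 and 15222 with activin alone, without overlap. A region upstream at 86042169 to 86042373 also ranked better with palbociclib, with scores of 20.4 and 10.6, against 8.35 and 6.31 with activin alone. It lay 3.73 kb upstream of CCN1, and RefSeq places DDAH1, which encodes an enzyme that breaks down methylarginines, from 2.56 kb upstream of CCN1 on GRCh38.

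ANKRD1 had the lowest number of summits, in one of the shorter windows, and its 1.96 summits per 100 kb were close to the genome's 1.99. At ANKRD1 (chromosome 10, 92671000 to 92682000, minus strand) each library held 1 summit, and the 4 lay in 4 separate regions. They were at 92681126 (score 5.45) in palbociclib replicate 1 and at 92671487 (2.80) in palbociclib replicate 2, against 92668797 (1.94) in activin replicate 1 and 92669033 (9.76) in activin replicate 2. The summit of palbociclib replicate 1 was the one within 2 kb of the start. Of the genome's stretches of this length, 37.3% held fewer summits in all, and their median was 5. Its promoter window held GGAATG at 2 places.

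LATS2, the kinase gene, had summits mainly after palbociclib. At LATS2 (chromosome 13, 21547000 to 21636000, minus strand) the palbociclib libraries held 4 and 4 summits, against 1 and 1 in the activin libraries. This is 4-fold with no overlap, and the exact permutation p was 0.333, the smallest possible. The count of activin summits rests on 1 summit a library, and within the span alone the groups overlapped. No LATS2 summit was among the highest 10000 of its list, the best rank being 11776 in palbociclib replicate 2. The region at the start, 21635658 to 21635695, scored 13.3 and 37.0 in the palbociclib libraries and held no activin summit. It lay 88.7 kb from the 3′ end of the span, and the LATS2 start printed above lies 88.6 kb from the 3′ end on GRCh38. The activin summits lay 1.55 kb inside the start (replicate 1, score 5.48) and 13.9 kb upstream of it (replicate 2, score 4.22), and at each of these places a palbociclib library also had one. The palbociclib-only region beyond the 3′ end, at 21545006 to 21545350, was weak, with best scores of 4.89 and 6.11.

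**Figure D4:**
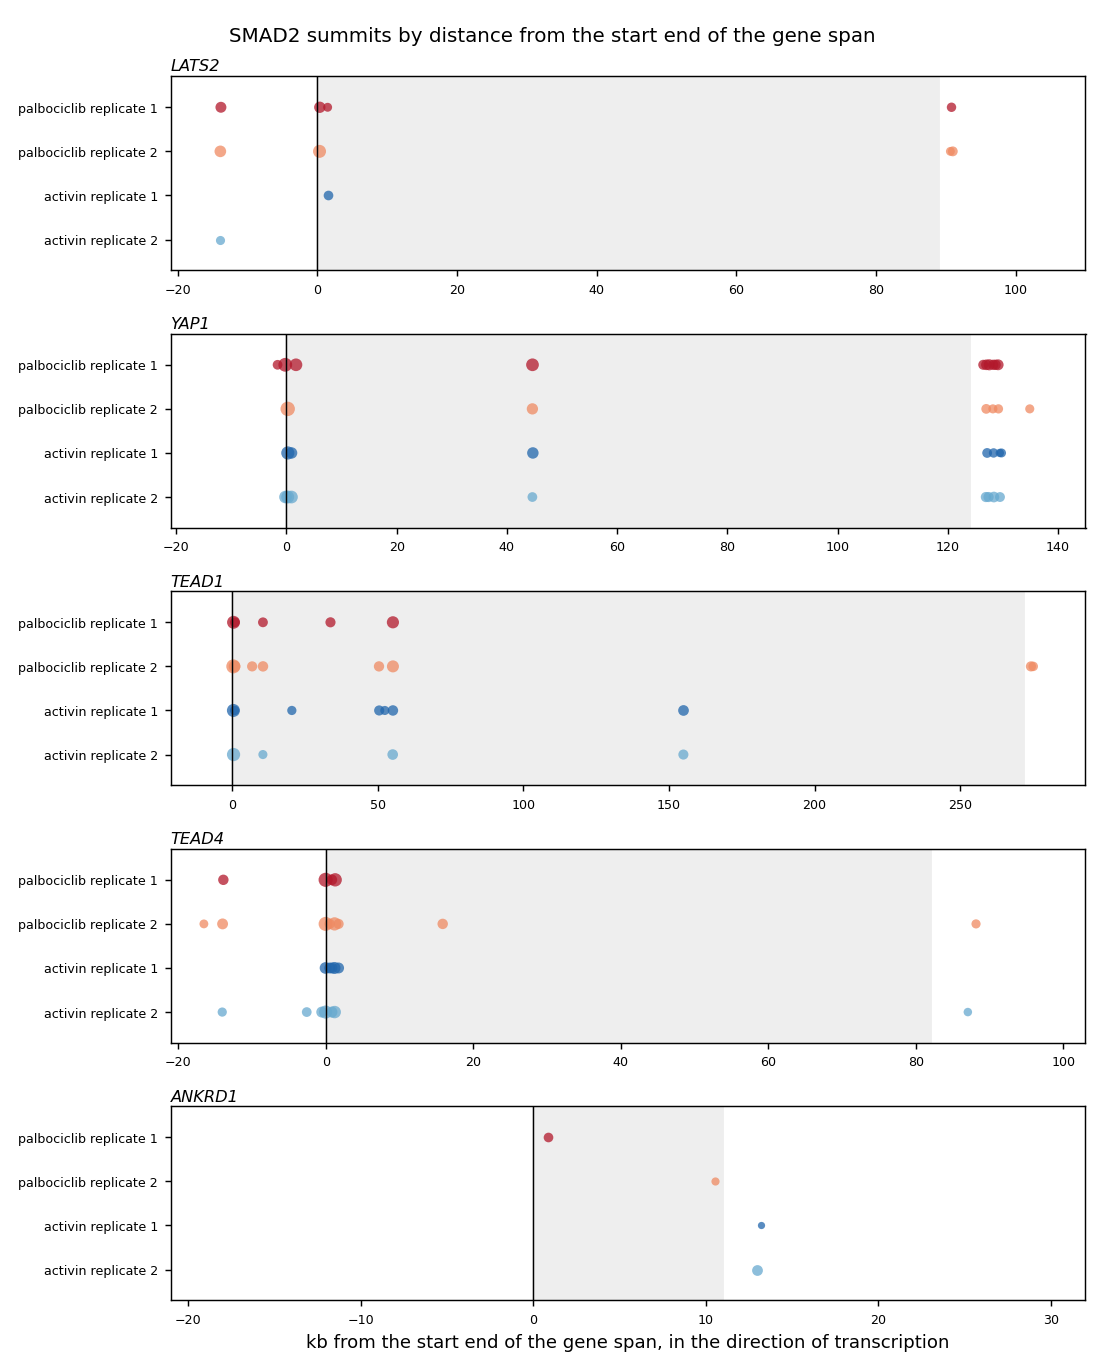
Summits of each library (rows) at LATS2, YAP1, TEAD1, TEAD4 and ANKRD1 by distance in kb from the start end of the gene span (x axis), with the span shaded and a larger disc for a higher score (area grows with the log of the score). YAP1, TEAD1 and TEAD4 carry their largest discs at the start in all 4 libraries, LATS2 has a disc at 0.3 kb in the palbociclib rows alone, and ANKRD1 has 1 disc a row at 4 places.

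At 7 of the 9 loci all 4 libraries had a summit within 2 kb of the start end of the span, at LATS2 3 libraries had one and at ANKRD1 1 library. At WWTR1 each library had 2 such summits. The stronger of them was 1.71 to 1.73 kb upstream of the span, 221.7 kb from the 3′ end. RefSeq places COMMD2 from 221.2 to 235.3 kb from that end on GRCh38. The WWTR1 starts of its promoter windows lie at 186.0 and 140.8 kb. The weaker, in the region at 149454084 to 149454295, lay inside the span and ranked worse in both palbociclib libraries. A stronger region lay deeper inside the gene, as described above. The share of all gene starts with such a summit was not computed, since no hg19 annotation was used, so these counts have no background. In all, 73 of the 314 summits lay within 2 kb of the start end of a span, with 17 and 16 in the palbociclib libraries and 21 and 19 in the activin libraries. The share of summits among the strongest 10% of their list was 5.48% and 8.70% with palbociclib, against 5.63% and 6.41% with activin alone. Over a whole list this share is 10% by definition, so it was lower at the loci in all 4 libraries. The median score at the loci was 11.6 and 7.85 with palbociclib and 9.78 and 8.92 with activin alone, against 9.41, 8.39, 9.46 and 8.34 over these 4 whole lists. The median at the loci was above that of the whole list in 3 of the 4 libraries.

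The outermost summits kept by the limit of 20 kb were those of AMOTL2 at 19.9, 19.9 and 19.8 kb from the span, with scores of 5.15 in palbociclib replicate 2 and 5.44 and 6.38 in activin replicates 2 and 1. The nearest ones left out lay 20.8 to 20.9 kb from the TEAD3 span in all 4 libraries, with scores of 17.6 and 7.50 with palbociclib and 29.4 and 21.6 with activin alone.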

How the data were processed

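SMAD2 was mapped by ChIP-seq in T47D cells, with libraries which, per the labels' protocols, were made with an Ion Torrent fragment kit and PCR. The submitters' processing notes name the build hg19 and the tools MACS2 2.0.9, Bowtie 1.1.0 and Picard. Parameters, read filters and duplicate handling: not given in the sources used here. The authors deposited 1 list of peak summits per library, with a score read as −log10 q against the input, since the lowest score was 1.31 and q = 0.05 gives a value just below that. A score belongs to its own list and serves to describe and rank within it. Lists hold no read numbers, so depth and its effect on the number of summits are unknown, and a position without a summit is not a position without SMAD2.

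Positions were made 1-based on chromosomes 1 to 22 and X. Summits of the 4 libraries were chained into regions at gaps of at most 200 bp. Group differences were tested with exact two-sided permutation tests over the 4 libraries. For comparison, the genome was cut into stretches of each locus's length, and those with any summit were counted. The regions named are, per locus, the 3 shared regions with the best worst rank, the leading group-specific region of each treatment and the shared region nearest to the start. Other regions and summits (weaker shared and group-specific regions, single summits and those at the limit) were chosen after their values were seen. Members and lists were chosen with earlier results of these data known. Strands came from RefSeq, and for TEAD1, TEAD4 and CCN1 from general knowledge. No hg19 annotation was used, so other Hippo genes were not analysed here. The code was tested on simulated data. Python 3.11.15, numpy 2.4.6, pandas 2.3.3 and matplotlib 3.10.9 were used.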

Additional observations from a re-analysis of the deposited data

How the results depend on the processing

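Read depth is unknown for these lists. The median score at these loci was 7.85 to 11.6 in the 4 libraries, against 8.34 to 9.46 over the whole lists. The number and place of the summits shifted with the cut on score and with the library. The log2 difference in summits over the 9 loci (0.14) kept its direction in 11 of 13 alternatives, and turned to −0.0713 at equal list lengths. The difference in summits per 10000 of the list (−1.23) kept its direction in 11 of 13 and turned to 1.0 among the highest 10000 summits. Without each library in turn these ranged from −0.0278 (without palbociclib replicate 2) to 0.31 and from −2.48 to 0.0305 (without palbociclib replicate 1). The causes were not tested.

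Loci with separate groups (3) numbered 1 among the highest 10000 summits, 5 with the span alone and 4 to 8 without each library. At WWTR1 the difference (4.5 summits) and at TEAD3 the difference (−5.5) kept their sign in every alternative with a difference, at 3.5 to 5.5 and −8.5 to −2.5 without each library. Single loci turned as follows: YAP1 (0.5) to −1.0 at equal list lengths and with the span alone, CCN1 (2.5) to −0.5 with the span alone, and TEAD1 (1.0) to −0.5 among the highest 10000 summits. Without each library the ranges were −1.5 to 2.5 at YAP1, −0.5 to 2.5 at TEAD1, −0.5 to 5.5 at CCN1 and −0.5 to 4.5 at AMOTL2.

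Regions in all 4 libraries (29) numbered 6 among the highest 10000 summits and 15 with the span alone. Palbociclib-only regions (10) numbered 1 and 6 in these alternatives, 6 with a wider gap for chaining and 13 to 39 without each library. Activin-only regions (9) numbered 0 and 5, 5 with a minimum score of 5, and 10 to 27 without each library, as 1 library then stands for its group. Shared regions ranked better with palbociclib (10) numbered 1 among the highest 10000 summits, 5 with the span alone and 13 to 17 without each library. Those ranked worse (5) numbered 1 among the highest 10000 summits and 9 to 12 without each library. This ranking was added after seeing the data.

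The replicate numbers gave no sign of pairing: the correlation of deviations in rank was −0.08 over the 23476 shared regions. With the replicate block, 5 loci had the same direction in both same-numbered pairs. Within these pairs, palbociclib-only regions averaged 41 and activin-only regions 33.5.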
